A study of Danio rerio with 8 samples.

Results

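The mitochondrial ribosomal protein genes were examined in zebrafish embryos at 8 hpf, and their members were chosen by symbol alone, as every gene whose name begins with mrpl or mrps and a digit. This gave 75 of the 32520 genes with counts, 47 named for the large subunit (*mrpl*) and 28 for the small subunit (*mrps*). The libraries were made from polyadenylated RNA of pooled whole embryos, 4 of wild-type and 4 of *miR-34a-/-*, both in the *casper* background that lacks most pigment. The mutants descend from a line with 1 deletion allele of the microRNA gene, so a single allele stands for the genotype. The pools held 30 embryos by the study's design, and up to 50 by the sample protocol. The mutants were maternal-zygotic and kept as a homozygous line of their own, and the wild-type embryos were not their siblings. The paper allows that the lines may differ genetically and that the mutant may develop somewhat differently. Loss of *miR-34a* therefore cannot be told apart from other differences between the lines. The comparison asks how mRNA levels differ between these genotypes in the gastrula.

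Mitochondria keep their own ribosome, the mitoribosome, which translates the few mRNAs of the mitochondrial genome into core subunits of the respiratory chain. Its ribosomal RNAs come from the mitochondrial genome, while every one of its proteins is encoded in the nucleus, made in the cytosol and imported. Some of these proteins have counterparts in bacterial ribosomes and others are found only in mitochondria. The early embryo lives on mitochondria inherited from the egg.

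Between 7132045 and 11191023 counts were obtained per wild-type library and between 8159574 and 15724724 per *miR-34a-/-* library, so that 1 count was worth 0.0642 to 0.140 CPM, the unit of counts scaled to the normalised library size. Nothing in the labels says whether the pools came from separate clutches, so p-values measure the spread between these pools. The *mir34a* gene had 0 counts in each library of both genotypes, which leaves room for a true level of at most 3 counts, so this gene gave no check of the genotypes. All 12 matched gastrula markers, among them *tbxta* and *sox17*, were read, and summed to 3440 to 3570 CPM in wild-type and 3110 to 3420 CPM in *miR-34a-/-* libraries. Of these, 8 were lower and 1 was higher at an adjusted p-value under 0.05. Markers of later tissues summed to 5.26 to 7.97 CPM in wild-type and 4.28 to 8.68 CPM in the mutants, with the blood, liver and pancreas genes *hbae1.1*, *fabp10a* and *ins* at 0 counts throughout. Of 6 germ cell genes, 4 were higher and 1 was lower (summed 116 to 143 CPM in wild-type, 118 to 127 CPM in the mutants). The lower one, *ddx4*, made up most of that sum (mean 95.2 CPM in wild-type, 72.8 CPM in the mutants). Of 5 enveloping layer genes 1 was lower (10200 to 11600 and 10500 to 11100 CPM), and of 4 genes of the yolk syncytial layer 1 was higher and 1 lower (665 to 855 and 659 to 672 CPM). Of the 7 maternal transcripts tested, 2 were higher and 0 lower. With an untested one, the 8 matched summed to 99.6 to 122 and 91.6 to 113 CPM. Most of this was *h1m*, which did not pass (mean 84.7 CPM in wild-type, 77 CPM in the mutants). Of 7 early zygotic transcripts tested, 1 was higher and 3 were lower, and the 8 matched summed to 546 to 602 and 563 to 590 CPM. Of all genes tested, 23.0% were higher and 22.4% lower at the same threshold. The part of the marker shifts in the changes of the mitoribosomal genes was not tested, and in whole-embryo RNA fewer cells of a type cannot be told apart from less RNA per cell.

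The mitoribosomal genes moved in both directions, and mostly by little. All 75 passed the filter on low counts, with between 9 and 1710 counts per library. In the edgeR test, with p-values adjusted over the 13842 genes tested, 26 were higher and 14 were lower in *miR-34a-/-* embryos at an adjusted p-value under 0.05, and 35 did not pass. The 40 genes that passed were 53.3% of the group, against 45.4% of all genes tested. By direction, 34.7% of the group rose against 23.0% of all genes, and 18.7% fell against 22.4%. The median log2 fold change, always given as *miR-34a-/-* over wild-type, was 0.07 for the group and -0.00 for all genes tested. The group median was 0.01 without *miR-34a-/-* replicate 3, 0.02 without wild-type replicate 2 and 0.04 without wild-type replicate 3. Of the 40 changes, 32 were smaller than 1.5-fold and 8 reached it, beside 17.6% of all genes tested. These 8 divided equally, with 4 higher and 4 lower, when 8.84% and 8.76% of all genes tested passed 1.5-fold upward and downward. The wild-type and *miR-34a-/-* libraries did not overlap for 35 of the 75 genes (46.7%, against 38.8% of all genes tested), with the mutant above in 21 (19.6% of all genes) and below in 14 (19.2%). In DESeq2's test, 17 genes were higher and 12 lower, so that 38.7% of the group passed beside 39.1% of all genes. In edgeR's test without wild-type replicate 3, 41.3% of the group passed beside 41.4% of all genes, and without wild-type replicate 2, 44.0% beside 43.2%. A share of changed genes above that of all genes was therefore not seen in every alternative.

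**Figure D1:**
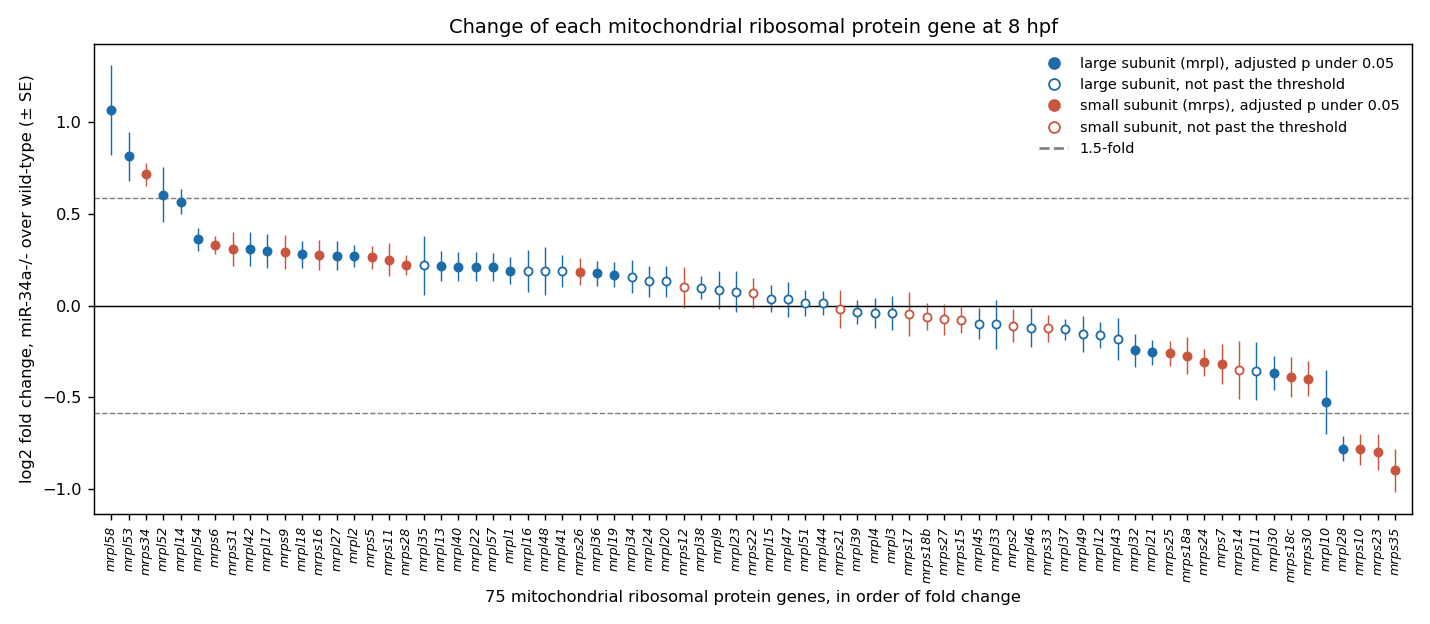
Log2 fold change of each of the 75 genes (vertical axis, *miR-34a-/-* over wild-type, bars are standard errors) in order of size, in blue for the large and in red for the small subunit, filled where the adjusted p-value was under 0.05. A gradual slope between 2 short tails is seen, with *mrpl58* at 1.07 on the left and *mrps35* at -0.90 on the right, and dashed lines mark 1.5-fold.

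The largest rise belonged to *mrpl58* (ENSDARG00000078835), whose product is a peptidyl-tRNA hydrolase that has become a fixed part of the large subunit and in human cells can free stalled chains. Wild-type libraries 1 to 4 had 2.06, 1.32, 1.23 and 1.26 CPM, and *miR-34a-/-* libraries 1 to 4 had 3.55, 3.37, 2.82 and 2.63 CPM. The genotypes did not overlap, although the gene was the most thinly read of the group, with between 9 and 41 counts per library, and wild-type replicate 1 stood above the other wild-type libraries. The log2 fold change was 1.07 ± 0.24 (SE, edgeR adjusted p = 7.4e-04), and 1.26 without that library.

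*mrps34* (ENSDARG00000057910) encodes a mitochondria-specific protein of the small-subunit body that human cells need to keep the small subunit stable. It had 47.7, 50.9, 47.9 and 53.9 CPM in wild-type libraries and 73.0, 83.8, 85.3 and 85.7 CPM in the mutants. All mutant libraries lay well above all wild-type libraries, replicate 1 being the lowest of the mutants. With a log2 fold change of 0.72 ± 0.06 (SE, edgeR adjusted p = 3.0e-10), it had the smallest adjusted p-value of the group and added the most CPM to its sum.

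*mrpl53* (ENSDARG00000008920) and *mrpl52* (ENSDARG00000090568), both mitochondria-specific proteins of the large subunit, were read at low levels. *mrpl53* had 8.24, 6.24, 5.91 and 8.53 CPM in wild-type libraries and 13.6, 12.1, 14.0 and 10.8 CPM in the mutants (log2 change 0.81 ± 0.13 SE, edgeR adjusted p = 1.6e-05). *mrpl52* had 4.8, 6.34, 6.17 and 5.46 CPM in wild-type libraries and 9.62, 10.6, 7.59 and 7.38 CPM in the mutants (log2 change 0.61 ± 0.15 SE, edgeR adjusted p = 0.0016). Neither overlapped between the genotypes, but the mutant libraries of *mrpl52* formed a higher pair (replicates 1 and 2) and a lower pair (3 and 4). In the RefSeq annotation of another assembly (GRCz12tu), *mrpl53* shares its place with *hpca*, which had a log2 fold change of 0.12 and did not pass the test, and with the use of strand not given in the sources used here, reads of the pair could be mixed.

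*mrpl14* (ENSDARG00000068886), the counterpart of a bacterial protein at the interface of both subunits, just missed the 1.5-fold mark. It had 44.0, 41.0, 42.6 and 36.7 CPM in wild-type libraries and 66.7, 53.7, 61.8 and 62.3 CPM in the mutants (log2 change 0.57 ± 0.07 SE, edgeR adjusted p = 1.8e-07). The genotypes did not overlap, and of the 22 genes that rose by less than 1.5-fold it was the largest.

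On the lower side, the steepest fall was that of *mrps35* (ENSDARG00000038456), a mitochondria-specific protein in the head of the small subunit. It had 14.9, 15.7, 13.0 and 14.4 CPM in wild-type libraries and 7.84, 8.10, 9.18 and 6.54 CPM in the mutants (log2 change -0.90 ± 0.12 SE, edgeR adjusted p = 6.0e-07). *mrps10* (ENSDARG00000045913), the counterpart of bacterial S10 in the same head, had 31.1, 32.5, 28.3 and 28 CPM in wild-type libraries and 17.3, 15.8, 17.9 and 18.7 CPM in the mutants (log2 change -0.78 ± 0.08 SE, edgeR adjusted p = 2.1e-08). For both genes each mutant library was below each wild-type library by a wide gap.

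*mrps23* (ENSDARG00000033973), another mitochondria-specific small-subunit gene, had 28, 21.7, 25.6 and 22.5 CPM in wild-type libraries and 13.7, 13.9, 15.7 and 13.4 CPM in the mutants (log2 change -0.80 ± 0.10 SE, edgeR adjusted p = 1.4e-07). The wild-type libraries were spread more than the mutant ones, without meeting them. In the same annotation *mrps23* and *mrps35* are each overlapped by another gene, for which no test was made. *mrpl28* (ENSDARG00000057805), the counterpart of bacterial L28, was the only large-subunit gene to fall past 1.5-fold, from 52.0, 58.1, 49.3 and 53.9 CPM to 30.4, 29.9, 33.8 and 30.5 CPM (log2 change -0.78 ± 0.07 SE, edgeR adjusted p = 3.8e-10). Tested against a fold change of 1.5 with glmTreat, rather than against no change, *mrpl28*, *mrps35* and *mrps10* passed (adjusted p from edgeR at most 0.044), while *mrps23* (0.055), *mrps34* (0.066), *mrpl58* (0.088), *mrpl53* (0.15) and *mrpl52* (1) did not.

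*mrpl10* (ENSDARG00000045091), which anchors the flexible stalk where translation factors dock, had 5.95, 4.73, 6.70 and 4.34 CPM in wild-type libraries and 4.39, 3.55, 4.04 and 3.46 CPM in the mutants. Here wild-type replicate 4 lay just below the highest mutant library, so the genotypes overlapped. The log2 fold change was -0.53 ± 0.17 (SE, edgeR adjusted p = 0.016). Without wild-type replicate 3 it was -0.40 (edgeR adjusted p = 0.097), and without *miR-34a-/-* replicate 4 it was -0.47 (edgeR adjusted p = 0.055).

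**Figure D2:**
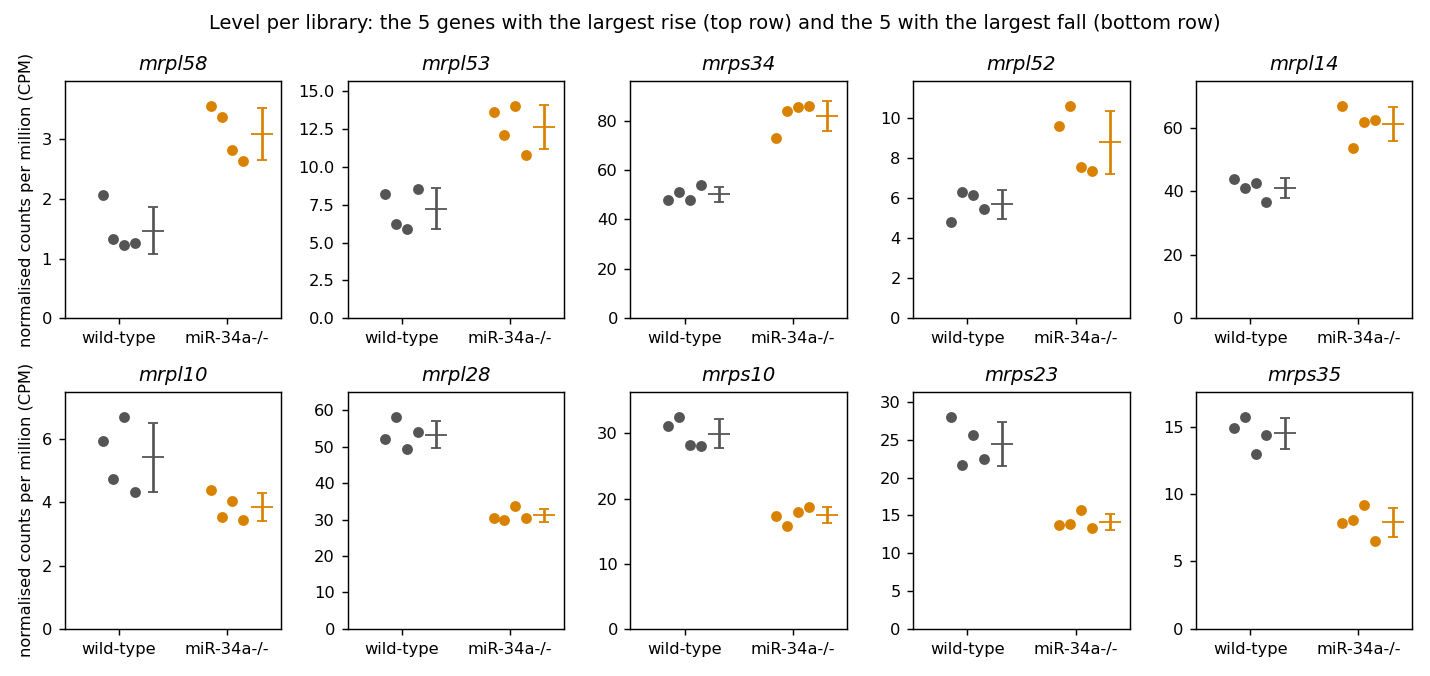
Normalised CPM (vertical axes, starting at 0) of the 5 genes with the largest rise (upper row) and the 5 with the largest fall (lower row) in each wild-type (grey) and *miR-34a-/-* (orange) library, with replicates 1 to 4 from left to right and the mean ± SD beside them (n = 4). The genotypes are apart in all of these plots but that of *mrpl10*, where wild-type replicate 4 (4.34 CPM) lies below *miR-34a-/-* replicate 1 (4.39 CPM).

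The comparison of the subunits depended on which quantity was used. By symbol, 17 large-subunit genes rose and 5 fell among 47 (46.8% passed), while 9 small-subunit genes rose and 9 fell among 28 (64.3% passed), beside 45.4% of all genes tested. The median log2 fold change was 0.13 for the large and -0.07 for the small subunit, with ranges from -0.78 to 1.07 and from -0.90 to 0.72. Without wild-type replicate 3 the large-subunit median was 0.08, and without wild-type replicate 4 the small-subunit median was -0.10. The median standard error of a single gene was 0.08, and no test of the difference was made, since genes of a ribosome are not replicates. Names and places differ for *mrps30* and *mrps18a*, whose products sit in the large subunit of the vertebrate mitoribosome. Counted there, 17 large-subunit genes rose and 7 fell among 49 (median 0.10), and 9 small-subunit genes rose and 7 fell among 26 (median -0.05).

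Summed over the genes, the mRNAs of both subunits were higher on average in the mutants. The ratio of mutant to wild-type was 1.06 for the large and 1.04 for the small subunit, and only the large-subunit libraries were apart. The large-subunit mRNAs amounted to 1207, 1209, 1169 and 1179 CPM in wild-type libraries and 1238, 1246, 1309 and 1236 CPM in the mutants, and all mutant libraries were above all wild-type ones. The small-subunit mRNAs amounted to 784, 755, 767 and 750 CPM in wild-type libraries and 776, 797, 813 and 780 CPM in the mutants, where the genotypes overlapped. The ratio of large to small was 1.56 ± 0.035 in wild-type and 1.59 ± 0.0222 in *miR-34a-/-* embryos (SD, n = 4), and ranged from 1.52 to 1.6 and from 1.56 to 1.61. The ranges overlapped, and the means differed by less than the wild-type SD.

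**Figure D3:**
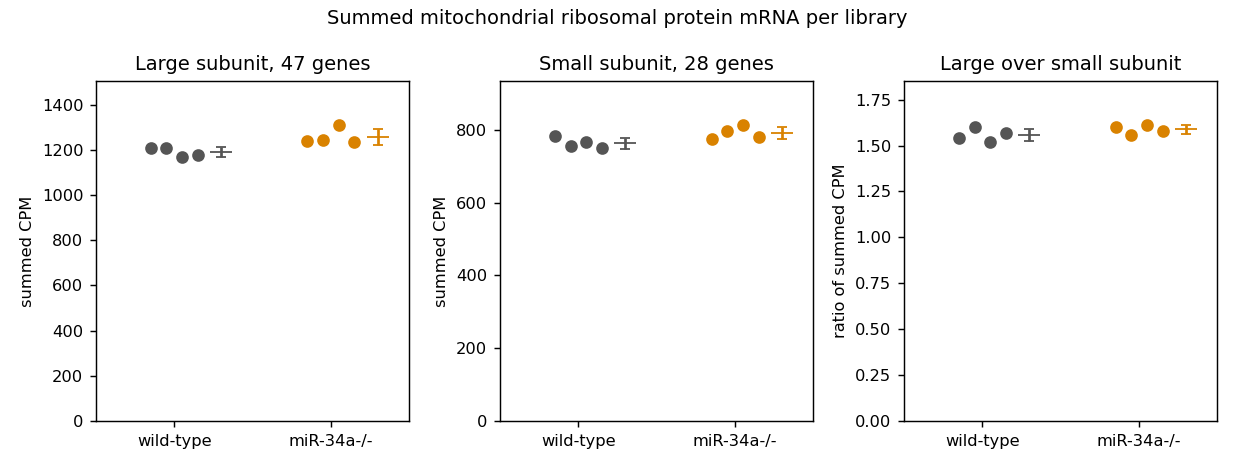
Summed CPM of the 47 large-subunit genes (left) and the 28 small-subunit genes (middle), and their ratio (right), in each wild-type (grey) and *miR-34a-/-* (orange) library, with the mean ± SD beside the points (n = 4) and axes that start at 0. The mutant libraries are higher for the large subunit (1236 to 1309 against 1169 to 1209 CPM), while the ratios overlap.

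Together the 75 genes took 1955 ± 28.1 CPM in wild-type embryos against 2049 ± 50.6 CPM in the mutants (SD, n = 4), a ratio of 1.05, and the libraries did not overlap (1930 to 1991 against 2014 to 2122 CPM). Without the normalisation, they took 0.193% to 0.198% of all counts in wild-type and 0.200% to 0.212% in *miR-34a-/-* libraries. This small surplus was the balance of opposite changes. The 26 genes that rose added 197 CPM, the sum of the 14 lower ones fell by 96.5 CPM, and that of the 35 others differed by -6.85 CPM. The 5 genes with the largest gain in CPM, *mrps34*, *mrps6*, *mrpl14*, *mrpl54* and *mrpl2*, went from 287 to 388 CPM. Without them, the other 70 genes summed to 1668 CPM in wild-type and 1661 CPM in the mutants. Their libraries overlapped (1643 to 1701 against 1630 to 1725 CPM). The 5 genes were singled out after their values were seen.

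Grouped by where their products lie in the mitoribosome, a grouping also made with the values known, genes of the same region often moved in opposite directions. The head of the small subunit turns as tRNAs move through the ribosome. Of its 8 genes, 4 fell (50.0%, beside 22.4% of all genes tested) and 2 rose (beside 23.0% of all genes), with a median of -0.31, and as the regions were formed after the values were seen, these shares are a description. Beside *mrps35* and *mrps10*, the genes *mrps24* (30.1 ± 1.09 against 24.3 ± 0.617 CPM, log2 fold change -0.31) and *mrps7* (12.8 ± 0.989 against 10.2 ± 1.02 CPM, -0.32) were lower (SD, n = 4), without overlap. *mrps31* and *mrps9*, of the same head, rose by 0.31 and 0.29 on the log2 scale, and the mutant and wild-type libraries overlapped for *mrps31*. *mrps7* did not pass without wild-type replicate 4 or *miR-34a-/-* replicate 3 (edgeR adjusted p = 0.064 and 0.063), nor *mrps9* without wild-type replicate 2 (0.060). *mrps14* and *mrps33* did not pass, at -0.35 (SE 0.16) and -0.12 (SE 0.07).

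The body and platform of the small subunit carry the decoding centre, where codons are read. Of their 16 genes, 7 rose and 2 fell (56.2% passed, beside 45.4% of all genes tested), with a median of 0.08. By direction, 43.8% rose, beside 23.0% of all genes, and 12.5% fell, beside 22.4%. *mrps23* (-0.80), also of the small subunit, was placed neither here nor in the head, and it fell further than any of these 16. *mrps6*, the gene with the highest count, had 90.4, 82.0, 87.7 and 87.6 CPM in wild-type libraries and 110, 110, 108 and 110 CPM in the mutants (log2 change 0.33 ± 0.05 SE, edgeR adjusted p = 3.1e-06). The mutant libraries nearly coincided, so that a change of this size stood clear of the spread. *mrps5*, *mrps11*, *mrps16* and *mrps28* also rose without overlap, by 0.22 to 0.28 on the log2 scale, though *mrps11* did not pass in DESeq2's test (adjusted p = 0.067), nor in edgeR's test without wild-type replicate 2 (0.054) or 3 (0.12) or *miR-34a-/-* replicate 4 (0.066). *mrps18c* fell, from 12.8 ± 0.0511 to 9.80 ± 1.17 CPM (SD, n = 4, log2 change -0.39 ± 0.11 SE, edgeR adjusted p = 0.0053), as did *mrps25* (-0.26).

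The S18 proteins are encoded by 3 related genes in vertebrates, and their products take different seats. *mrps18c* fell as given above. *mrps18a* (ENSDARG00000024465), of the large subunit, had 15.9 ± 1.46 CPM in wild-type embryos against 13.2 ± 1.05 CPM in the mutants (SD, n = 4, log2 change -0.27, edgeR adjusted p = 0.029), without overlap. It did not pass in DESeq2's test (adjusted p = 0.065), nor in edgeR's test without wild-type replicate 2 or 3 or *miR-34a-/-* replicate 1 or 3, where the adjusted p-value reached 0.12. *mrps18b* had a log2 fold change of -0.06 (SE 0.07) and did not pass.

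Many large-subunit genes were placed in no region. Among them *mrpl53*, *mrpl52*, *mrpl14* and *mrpl54* rose, and *mrpl28*, *mrpl30*, *mrpl21* and *mrpl32* fell. The central protuberance of the large subunit, which touches the head of the small subunit, held 6 of the genes. Of these, *mrpl58*, *mrpl18* (0.28) and *mrpl40* (0.21) rose and the others did not pass. Thus 50.0% rose, beside 23.0% of all genes tested, and 50.0% passed in either direction, beside 45.4%. *mrpl40* and *mrpl22* were among the genes that lost their place in some alternatives. In the RefSeq annotation used above, *mrpl40* is overlapped by *acaa2* (0.45) and *mrpl22* by *wwc1* (0.36), which both passed as higher. As for *mrpl53*, reads of these pairs could be mixed. In that annotation 23 of the 75 genes are overlapped by another gene. At the exit of the peptide tunnel, where new chains meet the inner membrane, *mrpl17* (0.30) and *mrpl22* (0.21) rose among 6 genes. Of these 6, 33.3% rose, beside 23.0% of all genes tested, and 33.3% passed in either direction, beside 45.4%. *mrpl45*, which in mammals tethers the ribosome to the inner membrane, had -0.10 (SE 0.08). Around the peptidyl transferase centre, where peptide bonds form, *mrpl2* (54.0 ± 0.936 against 65.4 ± 4.4 CPM) and *mrpl27* (21.3 ± 0.647 against 25.7 ± 0.991 CPM) rose by 0.27 on the log2 scale (SD, n = 4), while *mrpl3*, *mrpl4* and *mrpl16* did not pass. The share that passed around this centre was also below the 45.4% of all genes tested. All 3 stalk genes had negative log2 fold changes, of which only that of *mrpl10* passed. Thus 33.3% fell, beside 22.4% of all genes tested, and 33.3% passed in either direction, beside 45.4%. As for the head, the shares of these small regions are a description. *mrpl11* had -0.36 (SE 0.16) and *mrpl12*, whose product also binds the mitochondrial RNA polymerase in human cells, -0.16 (SE 0.07, edgeR adjusted p = 0.070) with no overlap between the genotypes.

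**Figure D4:**
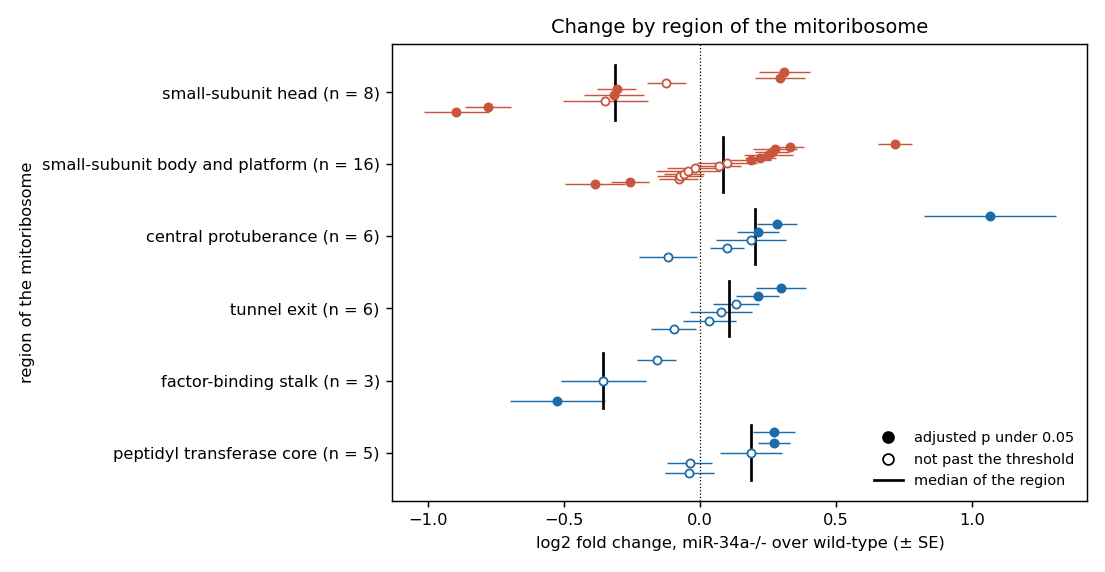
Log2 fold change (horizontal axis, *miR-34a-/-* over wild-type, bars are standard errors) of the genes of 6 regions of the mitoribosome, each point a gene, filled where the adjusted p-value was under 0.05, with the median of the region as a black line. The small-subunit head spans -0.90 to 0.31 around a median of -0.31, and the 3 stalk genes lie at -0.16 to -0.53. The small-subunit gene *mrps23* (-0.80) is in none of these regions, nor are many large-subunit genes, among them *mrpl53* (0.81) and *mrpl28* (-0.78).

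The remaining members changed by less than 1.5-fold. *mrpl54*, a mitochondria-specific gene of the large subunit, had 53.0, 60, 51.7 and 53.9 CPM in wild-type libraries and 66.6, 75.7, 70.7 and 68.1 CPM in the mutants, without overlap (log2 change 0.36 ± 0.06 SE, edgeR adjusted p = 2.2e-05). *mrpl42*, *mrpl57*, *mrpl13*, *mrpl1*, *mrps26*, *mrpl36* and *mrpl19* rose by 0.17 to 0.31 on the log2 scale, with overlap for all but *mrpl1* and *mrpl36*. *mrpl30* (-0.37) and *mrpl21* (-0.25) fell without overlap, and *mrpl32* (-0.24) fell with overlap. The product of *mrpl32* is cut to its mature form inside mouse mitochondria. The 35 genes that did not pass ranged from -0.36 (*mrpl11*) to 0.22 (*mrpl35*), and for 3 of them, *mrpl41*, *mrpl49* and *mrpl12*, the genotypes did not overlap. Among all genes tested, whether they passed or not, 38.8% were without overlap.

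The genes were also divided by descent. Of the 45 with a bacterial counterpart, 16 rose and 9 fell (55.6%, median 0.09), and of the 28 mitochondria-specific genes 10 rose and 4 fell (50.0%, median 0.04), beside 45.4% of all genes tested. The largest changes leaned to the latter, since 6 of the 8 genes past 1.5-fold were mitochondria-specific, all but *mrpl28* and *mrps10*. This lean was noticed after the values were seen and was not tested.

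*mrps30* (ENSDARG00000104111) was considered apart, because its symbol is among the computationally predicted miR-34 targets that the study lists, there under another Ensembl identifier than the one in the counts. Targets of a microRNA are repressed by it, as background, and whether *mrps30* is a target was not tested. The gene read here had 17.5, 18, 18.8 and 18.2 CPM in wild-type libraries and 13.2, 13.8, 16.2 and 12.5 CPM in the mutants. It was lower in all mutant libraries, with a log2 fold change of -0.40 ± 0.10 (SE, edgeR adjusted p = 0.0015).

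Mitoribosomal proteins under other names all changed by less than 1.5-fold, with a median log2 fold change of 0.16, beside 0.07 for the group. Of them 60.0% rose, beside 23.0% of all genes tested, and for 20% the genotypes did not overlap, beside 38.8%. Of 5 such genes, *chchd1* (log2 fold change 0.23) rose without overlap, and *gadd45gip1* (0.19) and *aurkaip1* (0.16) rose with overlap. *ptcd3* (0.08, SE 0.09), which helps mRNA enter, and the GTPase gene *dap3* (-0.12, SE 0.08) did not pass.

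The factors that work with the mitoribosome were also divided. Of 20 translation factors tested, 8 rose and 3 fell (55.0%, beside 45.4% of all genes tested, median 0.02). Past 1.5-fold were *taco1*, which in mammals activates translation of the cytochrome oxidase subunit 1 mRNA (log2 change 1.04 ± 0.27 SE), the recycling factor gene *mrrf* (0.66, SE 0.21), and *slirp*, whose product protects mitochondrial mRNAs (24.2 ± 2.64 against 36.6 ± 2.09 CPM, SD, n = 4, log2 change 0.60 ± 0.08 SE). In the other direction *guf1*, related to the bacterial elongation factor 4, went from 3.61 ± 0.204 to 1.96 ± 0.180 CPM (SD, n = 4, log2 change -0.88 ± 0.20 SE). The elongation factor gene *tufm* had 86.6 CPM on average in both genotypes (log2 change -0.00 ± 0.05 SE). *mrrf* did not pass without *miR-34a-/-* replicate 4 (edgeR adjusted p = 0.053) or in DESeq2's test.

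Of 25 assembly and rRNA modification genes tested, 7 rose and 2 fell (36.0%, beside 45.4% of all genes tested, median 0.10). *mterf4* (0.45) is counted among the rises both here and in the translation factors. The methyltransferase gene *mrm1*, which modifies the large rRNA, had 3.66, 2.36, 2.82 and 2.24 CPM in wild-type libraries and 5.23, 5.01, 6.49 and 4.81 CPM in the mutants (log2 change 0.93 ± 0.19 SE, edgeR adjusted p = 2.2e-04), without overlap. *mettl15*, a methyltransferase of the small rRNA (0.78, SE 0.27), and 1 of 2 genes named *ybey* (0.65, SE 0.25) also passed 1.5-fold. *mettl15* did not pass without wild-type replicate 1 or *miR-34a-/-* replicate 1 (edgeR adjusted p = 0.074 and 0.081), and *ybey* did not without wild-type replicate 1, 2 or 4 or *miR-34a-/-* replicate 1 or 3 (edgeR adjusted p up to 0.10), nor in DESeq2's test (adjusted p = 0.069). *rcc1l*, an assembly factor in human cells, had 10.2, 10, 12.2 and 5.32 CPM in wild-type libraries and 5.12, 5.74, 7.34 and 5.71 CPM in the mutants. Wild-type replicate 4 lay among the mutants, and the log2 fold change of -0.71 ± 0.17 (SE, edgeR adjusted p = 0.0014) was -0.87 without it.

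Of 16 genes for charging mitochondrial tRNAs that were tested, 2 were higher and 1 was lower (18.8%, beside 45.4% of all genes tested). These genes were measured with less precision, the median standard error being 0.16 against 0.11 for all genes tested, and the genotypes did not overlap for 37.5% of them, beside 38.8% of all genes. *sars2*, the mitochondrial seryl-tRNA synthetase gene, had by far the steepest rise among the genes of mitochondrial translation examined here. It had 2.17, 2.27, 3.79 and 3.92 CPM in wild-type libraries and 11.9, 11.2, 13.7 and 12 CPM in the mutants (log2 change 2.00 ± 0.16 SE, edgeR adjusted p = 8.8e-11). The wild-type libraries fell into a lower and a higher pair, both far from the mutants.

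Genes of mitochondrial transcription and biogenesis changed by less than 1.5-fold, with 3 of 14 higher and 3 lower (42.9%, beside 45.4% of all genes tested). The higher ones were *esrra* (log2 fold change 0.29) and *pprc1* (0.11), both without overlap, and *ssbp1* (0.19), with overlap. Among the lower were *gabpa*, an ETS factor that activates many nuclear genes of mitochondria (198 ± 13.1 against 151 ± 10.7 CPM, log2 fold change -0.39), *tfam*, which packs and transcribes mitochondrial DNA (26.0 ± 2.02 against 21.0 ± 1.68 CPM, -0.30), and the helicase gene *twnk* (28 ± 2.7 against 20.8 ± 2.41 CPM, -0.45), each without overlap (SD, n = 4). *nrf1*, another activator of such genes, had -0.10 (SE 0.05) and did not pass.

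The mRNAs that the mitoribosome translates nearly all moved one way. Of 13 mitochondrially encoded mRNAs, 12 rose (92.3%, against 23.0% of all genes tested in that direction), with a median of 0.32, and *mt-nd4l* did not pass (0.13, SE 0.06). The genotypes did not overlap for 69.2% of the 13, beside 38.8% of all genes tested. They overlapped for *mt-nd4*, *mt-nd1* and *mt-atp8*, which passed, and for *mt-nd4l*. *mt-co1* had 6940, 8210, 6670 and 6600 CPM in wild-type libraries and 9440, 9930, 9390 and 8790 CPM in the mutants, without overlap. *mt-nd6* rose most (0.91, SE 0.11), but it lies on the opposite strand from the other mRNA genes, and with the use of strand not given its reads could not be assigned with certainty. The mRNAs other than *mt-nd6* reach a poly(A)-selected library through short tails. They are cut from shared primary transcripts, so they are not independent of each other.

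Other large sets of nuclear genes were set beside the group. Of 81 cytosolic ribosomal protein genes tested, 9 rose and 21 fell (37.0%, median -0.04, middle 50.0% of values between -0.10 and 0.04). Of 84 nuclear subunits of the respiratory chain, 15 rose and 23 fell (45.2%, median -0.04, between -0.22 and 0.10). Of all genes tested, 23.0% were higher and 22.4% were lower, and 45.4% passed in either direction. The mitoribosomal genes spread over -0.14 to 0.22 in the same measure. Standard errors were smaller for the cytosolic set (median 0.04) than for the mitoribosomal genes (0.08). These sets were described after values were seen, and their differences from the mitoribosomal genes were not tested.

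**Figure D5:**
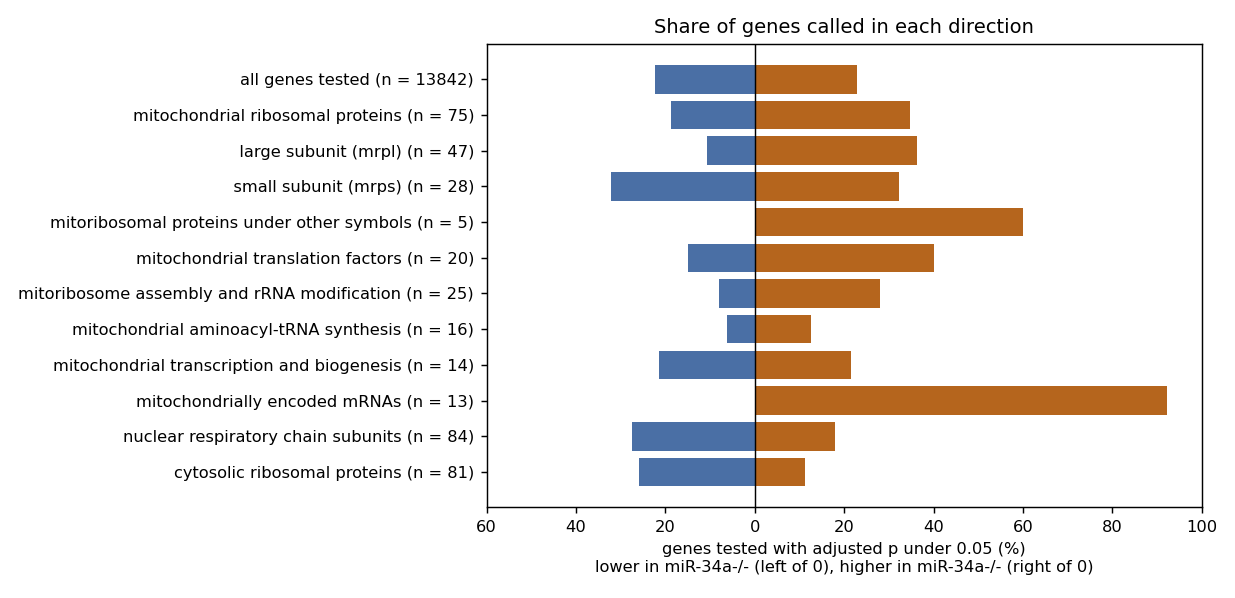
Share of the genes tested in each set (percent, horizontal axis) that were lower (blue, left of 0) or higher (brown, right of 0) in *miR-34a-/-* embryos at an adjusted p-value under 0.05, with the number tested in brackets. All genes tested divide 22.4% to 23.0%, the mitochondrial ribosomal proteins 18.7% to 34.7%, and of the mitochondrially encoded mRNAs 12 of 13 are higher.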

How the data were processed

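Reads were trimmed by the authors (Trim Galore 0.4.4), who mapped them with STAR 2.7.8 to danRer11 and deposited raw counts, 1 row per Ensembl gene. The counting program, annotation release and use of strand are not given in the sources used here. Symbols came from a table of gene names (29201 of 32520 genes), in lower case. The analysis was run in edgeR 4.0.16 (R 4.3.3), using TMM factors, the filterByExpr filter and a quasi-likelihood F-test of genotype without further terms. P-values were adjusted by Benjamini-Hochberg. CPM values are scaled by TMM. The standard error is the log2 fold change divided by the square root of F. The members were defined by symbol, but this group and the lists were chosen with earlier results of these data known. The genes named were those past an adjusted p-value of 0.05 and 1.5-fold, the 5 largest rises and falls, and genes whose name and place differ, and other genes were picked as examples of a region after their values were seen. Alternatives were other normalizations and filters, DESeq2 1.42.0, limma-voom (limma 3.58.1), glmTreat, a replicate block, and the omission of single libraries. No gene lengths were used, so sums, ratios and rankings of CPM across genes count reads and not mRNA molecules. Figures were drawn with matplotlib 3.10.9.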

Additional observations from a re-analysis of the deposited data

Results flagged for a closer look

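Among the genes named by the rule, 3 had a library far from the other 3 of its genotype by Dixon's criterion, which chance meets in about 1 in 20 groups (over all 75 genes it was met in 10 of 150 groups). *mrpl58* had 2.06 CPM in wild-type replicate 1, while replicates 2, 3 and 4 had 1.23 to 1.32 CPM. *mrps34* had 73.0 CPM in *miR-34a-/-* replicate 1, against 83.8 to 85.7 CPM in the other mutants. *mrpl28* had 33.8 CPM in *miR-34a-/-* replicate 3, against 29.9 to 30.5 CPM. All 3 kept their direction and their call without the library in question.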

How the results depend on the processing

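The 8 genes past 1.5-fold had an adjusted p-value under 0.05 under all 16 alternatives to the test against no change, and none of the 40 genes that passed changed sign in any. Of these 40, 26 passed under every alternative (16 higher, 10 lower) and 14, all within 1.5-fold, did not, namely *mrpl1*, *mrpl10*, *mrpl13*, *mrpl19*, *mrpl22*, *mrpl32*, *mrpl36*, *mrpl40*, *mrpl57*, *mrps7*, *mrps9*, *mrps11*, *mrps18a* and *mrps26*. With each library left out in turn, 20 to 23 genes were higher and 11 to 15 lower, or 41.3% to 48.0% of the group, beside 41.1% to 43.2% of all genes. DESeq2 gave 17 higher and 12 lower (38.7%, beside 39.1% of all genes), and upper-quartile factors 20 and 16 (48.0%, beside 45.6%). glmTreat at 1.5-fold left 0 genes higher (3 at an unadjusted p-value under 0.05) and 3 lower (4.00% of the group in all, beside 7.79% of all genes). The median log2 fold change of the group ranged from 0.01 to 0.09 over all alternatives. Same-numbered libraries did not deviate together (correlations from -0.03 to 0.01), and with a replicate block 23 genes were higher and 15 lower (50.7%, beside 43.9%). Of the 4 wild-type libraries, 1 correlated best with the mutant of its own number. Depth limits *mrpl58* most, with 9 to 41 counts per library.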
